A study of Arabidopsis thaliana with 12 samples.

Results

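A set of 4 nuclear-encoded genes of the photosynthetic light reactions was followed in the pam48 mutant of Arabidopsis thaliana and in its wild type (WT): PSBW (AT2G30570) and PSBY (AT1G67740), subunits of photosystem II, PSAN (AT5G64040), a subunit of photosystem I, and LHB1B2 (AT2G34420, also LHCB1.5), an antenna gene. They were chosen by gene, each as the single array probe annotated to that gene alone, and make up 4 of the 3439 probes measured. The samples were 6 from pam48, a mutant whose photosynthesis is altered, per the labels, and whose defective protein they call unknown, and 6 from WT, all of ecotype Columbia 0 and numbered 1 to 6 within a genotype. The labels give no tissue, age or growth condition and name no mutated gene, so neither the tissue nor the genotype could be checked on its own transcripts.

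In the thylakoid membrane, photosystem II uses light to take electrons from water and photosystem I passes them on to ferredoxin, while the light-harvesting complexes feed both with excitation energy. Subunits of these complexes that are encoded in the nucleus are made in the cytosol and imported into the chloroplast, and their transcripts are among the most abundant of green leaf cells. Nuclear photosynthesis genes are known to respond to the state of the chloroplast. PsbW is a small subunit with a single membrane helix, found where photosystem II meets its antenna. PsbY is a small photosystem II protein near cytochrome b559, made in Arabidopsis from a precursor that is cut into separate PsbY peptides. PsaN lies on the lumen side of photosystem I, where plastocyanin docks. Lhcb1 proteins, which LHB1B2 and its close relatives encode, are the main constituent of the trimeric light-harvesting complex of photosystem II (LHCII).

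Spot intensity was deposited on a linear scale on which the brightest spots of each sample stand at 100. Between 3 and 7 spots per sample were at that maximum. The median probe lay between 0.233 and 0.305 in pam48 samples and between 0.0913 and 0.192 in WT samples, so the deposited scale does not bring the samples to a common level. None of the 4 probes was at the maximum, or at the floor set at each sample's 5th percentile of positive values, in any sample. In all 12 columns the nearest column of the same genotype was the one with the consecutive number (1 with 2, 3 with 4, 5 with 6). These couples were therefore not counted as independent, and 3 couples per genotype carry the comparison. No label ties the columns to separate plants, and the p-values cover the spread between these columns alone, which may be technical.

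PSBW was the brightest of the 4 spots. Its deposited intensity had a lowest, median and highest value of 26.02, 42.0 and 49.5 in pam48 samples, against 26.2, 29.8 and 54.7 in WT samples. The genotypes overlapped, and in both of them PSBW was higher with numbers 1 and 2 than with 5 and 6. With numbers 3 and 4 the genotypes differed more, at 37.9 and 46.1 in pam48 and 27.5 and 32.2 in WT. With numbers 1 and 2 it stood at 48.5 and 49.5 in pam48 and at 54.7 in both WT samples, whereas with numbers 5 and 6 it stood at 26.02 in both pam48 samples and at 26.15 and 26.19 in the WT samples. Its rank among the probes of a sample ran from 9 to 16 in pam48 and from 10 to 19 in WT.

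PSBY, the other photosystem II gene, had deposited intensities with a lowest, median and highest value of 0.673, 0.933 and 2.71 in pam48 samples, against 2.35, 2.51 and 2.75 in WT samples. Pam48 samples 1 to 4 all lay between 0.673 and 0.962, below every WT sample, while pam48 sample 5 stood at 1.83, still below WT, and pam48 sample 6 at 2.71, within the WT range. The WT samples lay close together, with a mean of 2.53 ± 0.146 (SD, n = 6), and the pam48 samples were spread widely, with a mean of 1.32 ± 0.792 (SD, n = 6). In rank the probe ran from 129 to 720 in pam48 samples and from 132 to 163 in WT samples. No other probe of the 4 moved as far in rank.

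PSAN was the steadiest of the 4 in pam48. Its deposited intensity had a lowest, median and highest value of 5.08, 5.29 and 5.58 in pam48 samples, against 4.72, 6.21 and 6.597 in WT samples. WT sample 1 at 4.72 lay below the range of the mutant and WT sample 2 at 5.55 within it, and the other 4 WT samples lay above it. Ranks were nevertheless similar, from 67 to 83 in pam48 and from 58 to 81 in WT.

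LHB1B2 separated the genotypes on the deposited scale. It had a lowest, median and highest value of 8.43, 11.97 and 15.1 in pam48 samples, against 19.6, 22.5 and 25.4 in WT samples. Every pam48 sample lay below every WT sample, as for 1.6% of all 3439 probes and for 5.47% of the brightest 25% of probes (860). Pam48 samples 3 and 4 were lowest, at 8.43 and 9.20, and pam48 samples 5 and 6 were highest, at 15.1 and 14.6. By rank the groups overlapped, with a range from 24 to 53 in pam48 and from 19 to 26 in WT. In bulk samples, fewer cells of a type and less RNA per cell cannot be told apart. Transcripts of the other Lhcb1 genes can hybridise to such a spot, among them AT2G34430 (LHCB1.4), the next gene on the chromosome in the TAIR10.1 annotation, and the intensity does not separate them.

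**Figure D1:**
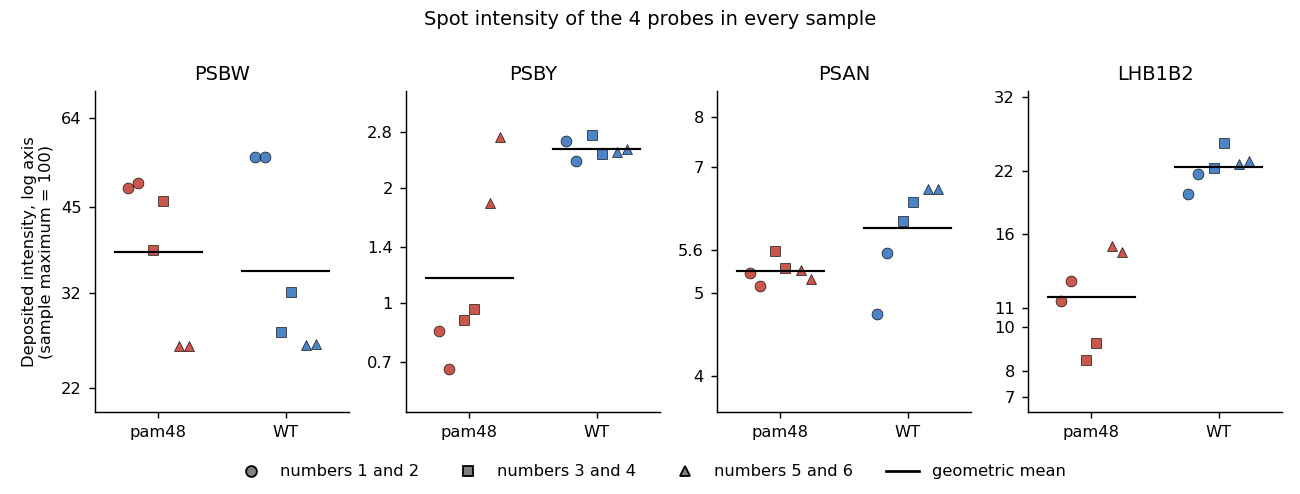
Deposited spot intensity (log axis, each sample's maximum is 100) of PSBW, PSBY, PSAN and LHB1B2 in the 6 pam48 samples (red, left) and the 6 WT samples (blue, right). Each point is a sample, its shape gives the couple of consecutive numbers, and the line is the geometric mean. LHB1B2 runs from 8.43 to 15.1 in pam48, below the WT range from 19.6 to 25.4, while PSBY is lowest in pam48 samples 1 to 4 and PSBW is highest with numbers 1 and 2 in both genotypes.

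**Figure D2:**
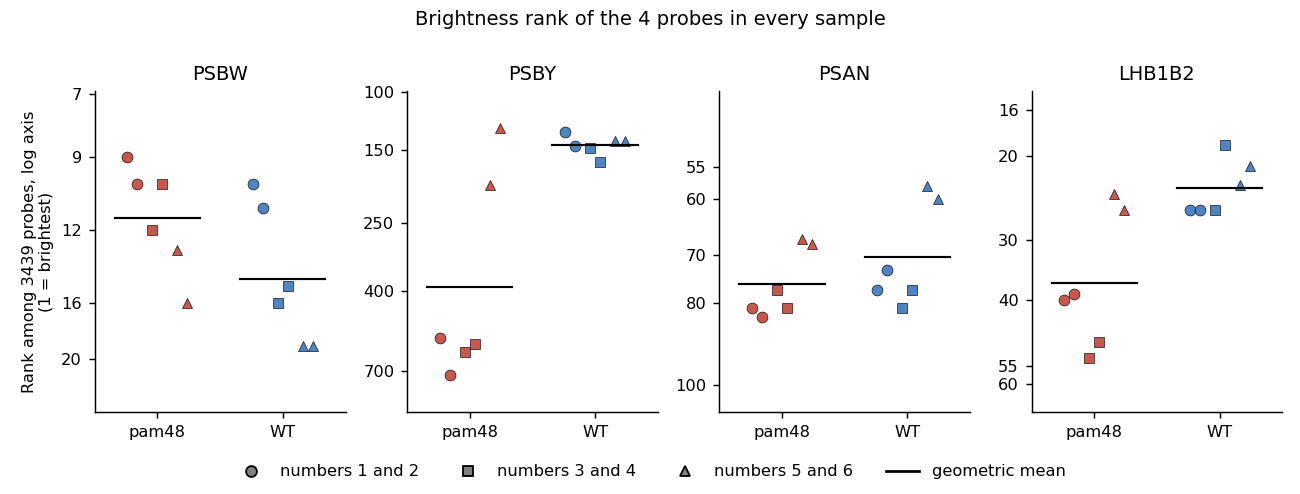
Rank of each of the 4 probes among the 3439 probes of its sample (log axis, 1 is the brightest spot and is at the top), by genotype as in the plot of intensities. PSBY reaches rank 720 in pam48 and stays between 132 and 163 in WT, whereas the ranks of PSAN, from 67 to 83 in pam48 and from 58 to 81 in WT, overlap.

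For the comparison of genotypes, intensities were quantile normalised between samples, which depends only on ranks, and tested with limma with the couples as a random block (pam48 minus WT, Benjamini-Hochberg adjustment over all 3439 probes, threshold 0.05). In that test 8 probes passed, 3 higher and 5 lower in pam48, which is 0.233% of the probes. The balance of directions followed the scaling, with 8 higher and 2 lower on the values as deposited, 5 and 5 with cyclic loess, and 7 and 120 with median centring. None of the 4 genes passed. At an unadjusted p under 0.05, 491 of the 3439 probes were counted by the same test, PSBY among them.

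PSBY gave the largest difference of the 4, at -1.42 ± 0.50 (log2, SE, 6 samples of each genotype), or 2.68-fold lower in pam48 (limma, adjusted p = 0.24). The 95% interval ran from -2.50 to -0.35. Normalised log2 values averaged 0.010 ± 1.05 in pam48 and 1.44 ± 0.104 in WT (SD, n = 6 each). With each column taken as a separate sample PSBY passed (limma, adjusted p = 0.038), as did 410 probes lower in pam48, 11.9% of all. With the replicate number as a block it also passed (adjusted p = 0.039), with 7.36% of all probes lower there, but with that block on couple averages it did not (adjusted p = 0.23).

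For LHB1B2 the log2 change was -0.70 ± 0.34 (SE), or 1.62-fold lower in pam48 (limma, adjusted p = 0.39), with a 95% interval from -1.44 to 0.045. Normalised log2 values averaged 3.61 ± 0.489 in pam48 and 4.31 ± 0.207 in WT (SD, n = 6 each), and they overlapped. On the values as deposited the change was -0.95 ± 0.30 (adjusted p = 0.086).

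PSBW gave 0.39 ± 0.34 (log2, SE; limma, adjusted p = 0.66), with a 95% interval from -0.36 to 1.13. Its normalised log2 values averaged 5.39 ± 0.366 in pam48 and 5.01 ± 0.434 in WT (SD, n = 6 each). PSAN gave -0.14 ± 0.26 (adjusted p = 0.86), with an interval from -0.70 to 0.42, and averaged 2.43 ± 0.170 in pam48 and 2.57 ± 0.268 in WT on the same scale. Neither difference passed the test, and both intervals leave room for changes of either sign.

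How the 4 genes stood to the bulk of probes depended on the scaling. On the values as deposited the median probe was higher in pam48 by 1.05 (log2), and relative to it PSBW changed by -0.95, PSAN by -1.22, LHB1B2 by -2.003 and PSBY by -2.18. With median centring all 4 were lower in pam48, and PSBY (-2.23, limma, adjusted p = 0.029), LHB1B2 (-2.05, 0.013) and PSAN (-1.27, 0.044) passed, while PSBW (-0.995, 0.29) did not. In that setting 3.49% of all probes passed as lower in pam48, and the median of the brightest 25% of probes, to which the 4 spots belong, was itself -0.67. With quantile normalisation the median was -0.13 over all probes and -0.050 over the brightest 25%. Which scale is right is not given by the values, since the labels state no loading control or reference spots.

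**Figure D3:**
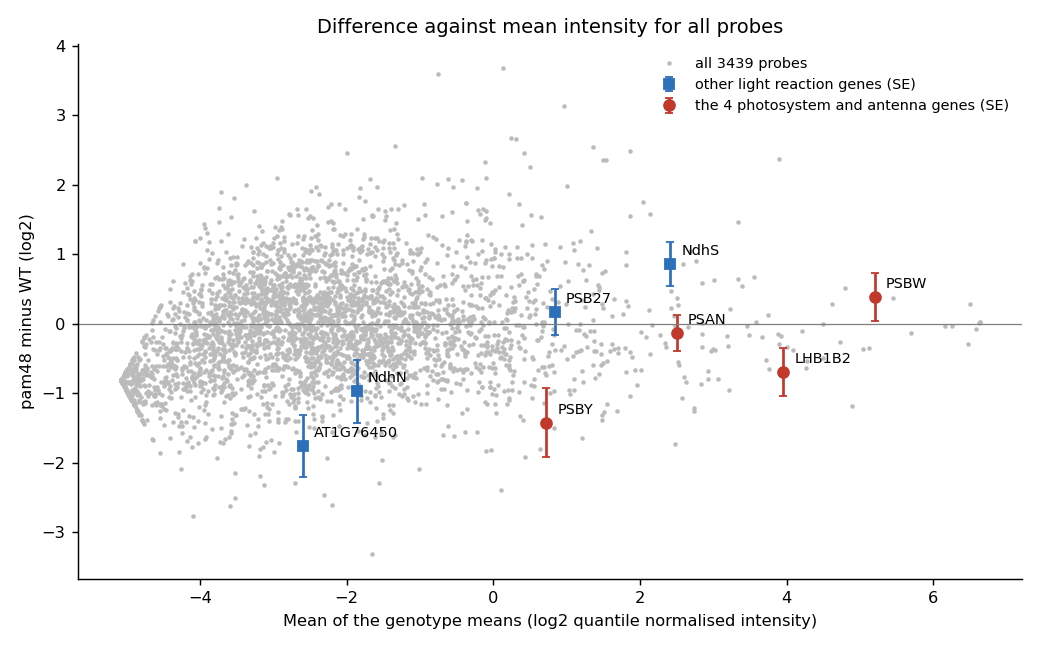
Difference between genotypes (pam48 minus WT, log2, quantile normalised) against the mean of the genotype means for all 3439 probes (grey), the 4 photosystem and antenna genes (red) and the other light reaction genes with a probe of their own (blue). Bars are the standard error from limma with couples as a random block. PSBY at -1.42 and LHB1B2 at -0.70 lie below 0, PSAN at -0.14 near it, and PSBW at 0.39 above it.

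A ratio between 2 spots of the same sample does not change when all spots of a sample are multiplied by a common factor, though it does change under quantile normalisation, which treats bright and dim spots differently. The size of such a ratio has no meaning as a ratio of transcripts, because the spots carry different probes. A difference of the ratio between genotypes shows that the intensities of the 2 spots changed unequally on the deposited scale. Whether their transcripts did was not tested, as nothing is given on background correction. The 6 ratios between the 4 genes were formed from deposited intensities. Each was tested in limma within a fit of all other probes over the same denominator, with couples as a random block, so that adjustment ran over 3438 probes.

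The ratio of the antenna gene to the photosystem I gene separated the genotypes on the deposited scale, but not after quantile normalisation. LHB1B2/PSAN had a lowest, median and highest value of 1.51, 2.32 and 2.84 in pam48 samples, against 3.44, 3.79 and 4.15 in WT samples. All pam48 samples lay below all WT samples, as did the ratios of 0.814% of all probes and of 3.03% of the brightest 25% to PSAN. The ratio was 1.72-fold lower in pam48, a log2 difference of -0.78 ± 0.31 (SE; limma, adjusted p = 0.083, 95% interval from -1.44 to -0.12). It did not pass with couples as a random block, where 0.378% of probes were called lower against PSAN. It passed with each column as a sample (adjusted p = 0.010) and with the replicate number as a block (0.019), with 1.69% of probes called lower in either case. Called in either direction were 63.2% of ratios to PSAN with each column as a sample and 69.3% with the replicate block, most of them higher. With that block on couple averages LHB1B2/PSAN did not pass (0.18). After quantile normalisation the ratio ran from 1.60 to 3.05 in pam48 samples and from 2.68 to 4.69 in WT samples, which overlap, and the log2 difference was -0.56 ± 0.35 (SE; adjusted p = 0.58). On deposited values the exact permutation test over the 12 samples gave p = 0.0022, the smallest it can give. Over the 6 couple averages the exact permutation test gave p = 0.1, also the smallest possible. Both follow from the lack of overlap, which 28.7% of ratios to PSAN showed in either direction, and add nothing to it. The test over 12 samples also takes the columns of a couple as independent.

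PSBY/PSAN had a lowest, median and highest value of 0.132, 0.171 and 0.523 in pam48 samples, against 0.376, 0.403 and 0.561 in WT samples. Pam48 samples 1 to 4, from 0.132 to 0.180, lay below every WT sample, pam48 5 at 0.344 just below, and pam48 6 at 0.523 among them. The log2 difference was -0.96 ± 0.47 (SE; limma, adjusted p = 0.14), and it passed with each column as a sample (0.025) and with the replicate number as a block (0.039). In these settings 63.2% and 69.3% of ratios to PSAN were called in either direction, with 1.69% called lower in each. With that block on couple averages the adjusted p was 0.17.

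Ratios to PSBW also carried the difference of PSBW between couples. LHB1B2/PSBW had a lowest, median and highest value of 0.200, 0.244 and 0.579 in pam48 samples, against 0.358, 0.800 and 0.882 in WT samples, and the groups overlapped. Its log2 difference was -1.06 ± 0.52 (SE; limma, adjusted p = 0.44). PSBY/PSBW ran from 0.0136 to 0.104 in pam48, with a median of 0.0223, and from 0.0429 to 0.100 in WT, with a median of 0.0854 (log2 difference -1.23 ± 0.70, SE; adjusted p = 0.46). Both passed with the replicate number as a block (adjusted p = 0.021 for LHB1B2/PSBW and 0.019 for PSBY/PSBW). There 2.12% of ratios to PSBW were called lower and 50.8% in either direction. Neither passed with that block on couple averages (0.19 and 0.12). PSAN/PSBW differed by -0.27 ± 0.52 (log2, SE; adjusted p = 0.77), with a median of 0.132 in pam48 and 0.209 in WT, and by -0.52 ± 0.47 after quantile normalisation (adjusted p = 0.63). With the random block 0 of 3438 ratios to PSBW passed limma's test, or 0%, and 358 had an unadjusted p under 0.05.

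LHB1B2/PSBY, the ratio of the 2 genes with the largest differences below 0, had a lowest, median and highest value of 5.37, 9.45 and 18.7 in pam48 samples, against 7.39, 9.14 and 10.4 in WT samples. Its log2 difference was 0.18 ± 0.64 (SE; limma, adjusted p = 0.80), where 47.1% of all probes passed as higher against PSBY. The 95% interval, from -1.19 to 1.54, is wide, and the difference was 0.73 ± 0.69 after quantile normalisation (adjusted p = 0.43), so these values do not show that the 2 genes changed alike.

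**Figure D4:**
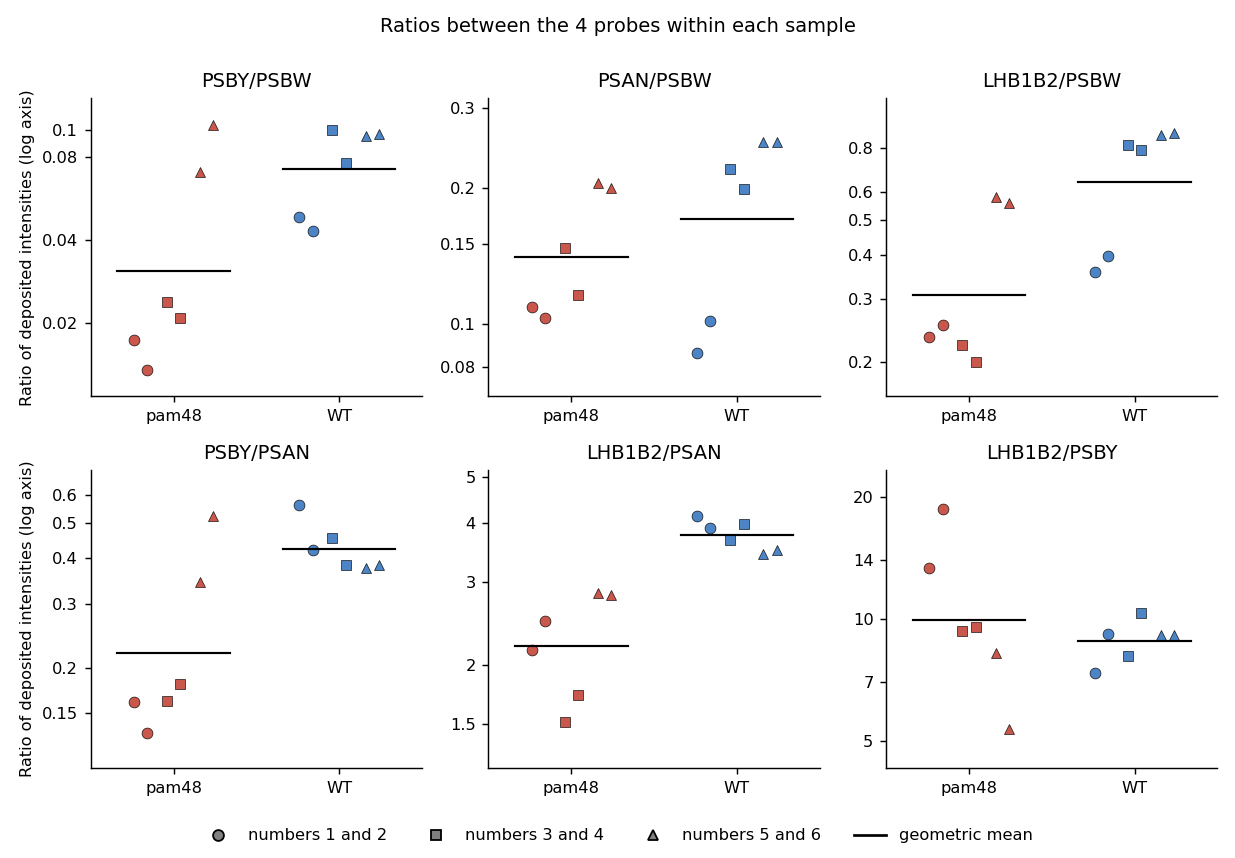
The 6 ratios of deposited intensities between PSBW, PSBY, PSAN and LHB1B2 within each sample (log axis), for 6 pam48 samples (red, left) and 6 WT samples (blue, right), with point shapes for the couples of consecutive numbers and a line at the geometric mean. LHB1B2/PSAN, from 1.51 to 2.84 in pam48 and from 3.44 to 4.15 in WT, is the ratio in which the genotypes do not overlap on this scale.

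The difference between genotypes was also taken within each couple of consecutive numbers, from couple averages and without a test. PSBY gave -2.20 with numbers 1 and 2, -1.94 with 3 and 4 and -0.14 with 5 and 6 on the quantile normalised log2 scale, and -1.72, -1.48 and -0.17 on the deposited scale. LHB1B2 gave -0.65, -1.24 and -0.20 on the normalised scale and -0.78, -1.43 and -0.63 on the deposited scale. Both genes were thus lower in pam48 in all 3 couples on both scales, as were 4.65% of all probes (12.8% of the brightest 25%) on the deposited scale and 27% (26.5%) after normalisation. On the normalised scale the difference with numbers 5 and 6 was the smallest of the 3 for PSBY and for LHB1B2. PSBY without numbers 5 and 6 passed at -2.11 ± 0.26 (log2, SE; limma, adjusted p = 0.0032), and LHB1B2 at -0.92 ± 0.28 (adjusted p = 0.047), where 13.1% of all probes passed as lower. Without numbers 1 and 2 PSBY gave -1.04 ± 0.70 and LHB1B2 -0.70 ± 0.56 (adjusted p = 0.98 for both), and without numbers 3 and 4 they gave -1.15 ± 0.67 and -0.44 ± 0.35 (adjusted p = 1.0 for both).

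For PSAN the differences were -0.15, 0 and -0.26 on the normalised scale. The value of 0 arises because PSAN held the ranks 77 and 81 in both genotypes with numbers 3 and 4. For PSBW they were 0.16, 0.64 and 0.36 on the normalised scale, but -0.16, 0.49 and -0.0085 as deposited. The log2 ratio LHB1B2/PSAN was lower in pam48 in each couple, at -0.80, -1.25 and -0.30. The share of all probes with a lower ratio to PSAN in all 3 couples was not counted. PSBY/PSAN differed by -1.74, -1.29 and 0.16, so its sign with numbers 5 and 6 was opposite to the others. LHB1B2/PSBY differed by 0.94, 0.043 and -0.46. Whether couples differ from each other in these changes was not tested.

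**Figure D5:**
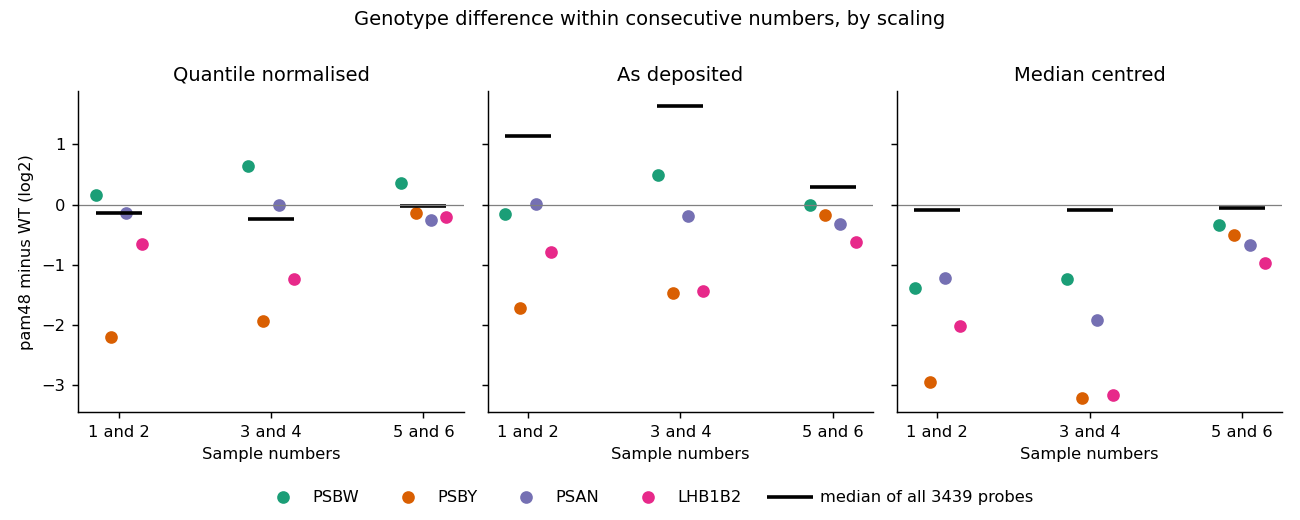
Difference between genotypes (pam48 minus WT, log2) within numbers 1 and 2, 3 and 4, and 5 and 6 for the 4 genes under 3 scalings, each point a difference of 2 couple averages. Black bars mark the median of all 3439 probes. PSBY lies at -2.20 and -1.94 with numbers 1 to 4 and at -0.14 with numbers 5 and 6 after quantile normalisation, and the median probe on the deposited scale lies at 1.15, 1.64 and 0.29.

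Of 100 nuclear genes listed for light harvesting, both photosystems, electron transport, the NADH dehydrogenase-like (NDH) complex, and assembly or regulation, 8 had a probe of their own, the 4 genes above among them. Another 7 were found only on probes shared by several genes and were not read. None of the 8 passed limma's test with couples as a random block, and 4 passed with each column as a sample. With the random block 3 of the 8 had an unadjusted p under 0.05, as had 491 of all 3439 probes. The median change of the 8 was -0.42 (log2), where that of all probes was -0.13. PSB27, an assembly factor of photosystem II, gave 0.17 ± 0.33 (log2, SE; limma, adjusted p = 0.87). NdhN and NdhS, subunits of the NDH complex that returns electrons from photosystem I to the plastoquinone pool, gave -0.98 ± 0.46 (adjusted p = 0.35) and 0.86 ± 0.32 (0.26). AT1G76450, listed as a PsbP-domain protein, gave -1.76 ± 0.44 (adjusted p = 0.14). NdhN, NdhS (both 0.046) and AT1G76450 (0.0085) passed, as PSBY did, with each column as a sample, where 16.8% of all probes passed. Of 10 marker genes for senescence, seed and root, none had a probe of its own.

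Likeness of pattern was measured as the SD, over the 12 samples, of the log2 ratio of a probe to the gene in question on the deposited scale. This was done for the 416 other probes with 1 gene that lay above the floor in all samples. The 12 samples share couples and a common scale within each sample, so these values only describe. Closest to PSBY were AT1G21500 (SD 0.412), AT1G44830 (0.437) and LHB1B2 (0.440), where the median probe had an SD of 1.396. Seen from LHB1B2, PSBY was in place 14 and PSAN, with an SD of 0.486, in place 16. The probes closest to LHB1B2 were AT2G47360 (0.231), AT1G21660 (0.269) and AT4G31470 (0.277). PSAN was followed most closely by AT3G51500 (0.184), AT1G18060 (0.194) and AT1G28150 (0.221), and PSBW by AT3G47650 (0.340), AT2G19280 (0.370) and AT5G06790 (0.380). Between the 4 genes the widest SD was that of PSBY to PSBW, the pair of photosystem II genes, at 1.09.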

How the data were processed

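The authors deposited 1 spot intensity per probe and sample in a single table, on a linear scale from 0 to 100. For labelling, scanner, background correction and normalisation the sources used here give nothing. Sample titles gave the genotype and the number. Intensities were quantile normalised, values under the 5th percentile of a sample's positive values were raised to that percentile (the floor), and log2 was taken. The test was limma (version 3.58.1, R version 4.3.3) with lmFit, duplicateCorrelation and eBayes, pam48 minus WT and two-sided, with Benjamini-Hochberg adjustment and a threshold of 0.05. Columns with consecutive numbers in a genotype formed a random block, within which the correlation was 0.812. Ratios used deposited intensities with the same floor. Code for the fits was tested on simulated data. Precision is limited by the number of samples, not by a read depth. Alternatives covered the independence of columns, pairing, scaling, floor, filter and variance model.

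The members, the lists and the couples were chosen with earlier results of these data known. Deviations from the genotype mean correlated between the pam48 and WT sample of each number (r across probes 0.188 to 0.419 over the 6 numbers). Pairing of the genotypes by number was therefore tried, but only in alternative fits and in the differences within couples. The main test and the exact permutation tests did not pair the genotypes. No label explains the numbers.

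Gene names came from the platform annotation, updated by Entrez Gene identifier against TAIR10.1. Among the 3439 probes 692 had 1 gene (690 with a locus), 870 had several genes, which left them unnamed, and 1877 had no entry there. No coordinates are printed, as no source used here gives the probes' build. By rule, the text names the 4 members, the listed genes with a probe of their own, and the 3 probes most like each member.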

Additional observations from a re-analysis of the deposited data

How the results depend on the processing

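Limits come first from the number of samples: 3 couples per genotype cannot give an exact permutation p under 0.1, and no probe intensity shows which scaling is right. Leaving out each sample in turn ended or made no call of the 4 genes or the 6 ratios. PSBY then ran from -1.56 to -1.35, LHB1B2 from -0.78 to -0.61, PSBW from 0.34 to 0.44 and PSAN from -0.15 to -0.12 (log2), and the count of probes called from 2 to 12 (2 without WT 3 or WT 4, 12 without pam48 5).

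The ratios then ran from -1.35 to -1.16 for PSBY/PSBW, from -0.33 to -0.22 for PSAN/PSBW, from -1.09 to -1.02 for LHB1B2/PSBW, from -1.08 to -0.89 for PSBY/PSAN and from -0.82 to -0.74 for LHB1B2/PSAN. LHB1B2/PSBY (0.18) ran from 0.083 without pam48 2, with 0.084 without pam48 5, to 0.29 without pam48 6.

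The count of 8 became 578 with each column a sample, 441 with the replicate number as a block, 441 with array weights, 127 with median centring, 61 with a common floor and 45 with a variance trend. It was 3 with the replicate block on couple averages and 0 with couples averaged (limma, 386 at an unadjusted p under 0.05). Without numbers 1 and 2 it was 0 (111 unadjusted), without 3 and 4 also 0 (127 unadjusted), and without 5 and 6 it was 699.

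PSBY (-1.42) passed with each column a sample, in the replicate block and without numbers 5 and 6 (-2.11). It also passed with array weights (-1.93), where 300 of the 3439 probes were called lower, and with median centring (-2.23), where 120 were. LHB1B2 (-0.70) passed without numbers 5 and 6 (-0.92) and with median centring (-2.05). The exact permutation test over 12 samples gave unadjusted p = 0.015 for PSBY and p = 0.022 for LHB1B2. It takes the columns of a couple as independent, and the share of all probes under 0.05 in it was not counted. Over couple averages the exact permutation test gave unadjusted p = 0.1 for PSBY and p = 0.2 for LHB1B2. PSAN passed with median centring (-1.27) and was 0.0074 with cyclic loess, and PSBW was -0.995 with median centring. Within numbers 1 and 2 PSBY gave -2.20, within 3 and 4 LHB1B2 gave -1.24, and within 5 and 6 they gave -0.14 and -0.20.

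Of the ratios, PSBY/PSBW (-1.23) passed in the replicate block, without numbers 5 and 6 (-1.77) and with array weights (-1.81). It was -0.16 within 5 and 6. LHB1B2/PSBW (-1.06) passed in the replicate block and with array weights (-1.79), and was -1.93 within 3 and 4. PSBY/PSAN (-0.96) passed with each column a sample, in the replicate block, without numbers 5 and 6 (-1.52) and with array weights (-1.37). It was -1.74 within 1 and 2 and 0.16 within 5 and 6. LHB1B2/PSAN (-0.78) passed with each column a sample, in the replicate block and with a variance trend. It also passed without numbers 5 and 6 (-1.02) and with array weights (-1.08). It was -1.25 within 3 and 4 and -0.30 within 5 and 6. The share of all ratios passing in the last 3 of these settings was not counted. Among single probes, 699 passed without numbers 5 and 6, 441 with array weights and 45 with a variance trend. The exact permutation test over 12 samples gave unadjusted p = 0.048 (PSBY/PSBW), 0.030 (LHB1B2/PSBW), 0.032 (PSBY/PSAN) and 0.0022 (LHB1B2/PSAN). Over couple averages the exact permutation test gave p = 0.2, 0.2, 0.3 and 0.1 in that order. Both values for LHB1B2/PSAN follow from its lack of overlap. LHB1B2/PSBY was -0.21 without numbers 1 and 2, 0.94 within them and -0.46 within 5 and 6. With quantile normalised values, where none of the 6 passed, the ratios were -1.81 (PSBY/PSBW), -0.52 (PSAN/PSBW), -1.08 (LHB1B2/PSBW), -1.29 (PSBY/PSAN), -0.56 (LHB1B2/PSAN) and 0.73 (LHB1B2/PSBY). Without numbers 1 and 2 no ratio passed, at -1.07 for PSBY/PSBW, -0.50 for PSAN/PSBW, -1.27 for LHB1B2/PSBW, -0.57 for PSBY/PSAN and -0.77 for LHB1B2/PSAN. Without numbers 3 and 4 none passed, at -0.86, -0.073, -0.62, -0.79 and -0.55 in the same order, and 0.24 for LHB1B2/PSBY. Without numbers 5 and 6 LHB1B2/PSBW (-1.28), PSAN/PSBW (-0.25) and LHB1B2/PSBY (0.49) did not pass. Without numbers 1 and 2, or 3 and 4, PSBY gave -1.04 and -1.15 and LHB1B2 -0.70 and -0.44, and neither passed. The causes were not tested. No probe was at the maximum among the 4, so leaving out saturated samples was not run. The exact test on couple averages and the share among the brightest probes were added after seeing the data.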
